A study of Homo sapiens with 4 samples.

Results

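Gene expression after combined BMP4 and CHIR99021 treatment was compared with that of untreated cells in HuES6, an established human embryonic stem cell (hESC) line. Both arrays of the comparison came from cells taken off MEF-conditioned medium, replated as single cells on Matrigel and held in a serum replacement-based hESC medium that held FGF2 at 20 ng/ml together with Activin A at 5 ng/ml. The untreated cells stayed in that medium, whereas the treated cells received the ligand BMP4 (20 ng/ml) and the GSK3 inhibitor CHIR99021 (5 µM) together for 4 h. The series holds 4 Illumina HumanHT-12 V4 arrays, and the other 2 were of cells given BMP4 alone or CHIR99021 alone at the same concentrations and time. Each group is 1 array of 1 cell line, so no difference has a replicate check and no p-value was computed. Every probe with a detection p-value below 0.01 on at least 1 of the 2 arrays was a member of the comparison. This took in 17836 of 47321 probes, or 37.7%, and 10825 of 20046 genes when each gene was read at its brightest probe.

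BMP ligands act through receptor kinases that phosphorylate SMAD1, SMAD5 and SMAD8, which enter the nucleus with SMAD4 and bind target genes. In the canonical WNT pathway a destruction complex built around AXIN, APC and GSK3 keeps beta-catenin low, and blocking GSK3 lets beta-catenin accumulate and act with TCF/LEF factors on DNA. In the early embryo both signals, together with NODAL, act in the primitive streak, the site at which mesoderm and endoderm form, and in culture the same signals move hESCs out of the undifferentiated state.

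The labelled cell type was checked against its defining genes. Of 7 markers of undifferentiated hESCs on the array all were detected on both arrays, with the transcription factor POU5F1 at a log2 level of 11.51 in untreated cells and 11.42 with both treatments. PAX6 and SOX1 of the neural lineage, SOX17, FOXA2 and GATA6 of endoderm, PECAM1, TAL1 and PTPRC of endothelium and blood, and NKX2-5 and MYH6 of heart muscle were not detected on either array. Other members of these lists were detected and none passed the rule given below, namely TUBB3 (a log2 difference of 0.06) and NEUROG2 (-0.69) of the neural list, AFP (0.07) of endoderm, CDH5 (-0.65) and KDR (-0.22) of endothelium and MYL7 (-0.23) of heart muscle. Of these MYL7, at 10.95 in untreated cells, TUBB3, at 11.94, and AFP, at 8.31, were bright. The fibroblast markers DCN and LUM were not detected either, but 5 of 7 fibroblast markers were, and all 5 had log2 differences below 0 with both treatments, from -0.17 (COL1A1) to -0.59 (COL1A2). Their summed raw intensity with the undetected members was 4051 in untreated cells, 3214 with BMP4, 3474 with CHIR99021 and 2813 with both. Per array 15980 to 16762 probes were detected, and raw median intensities ran from 88.7 to 93.6. In bulk RNA, fewer cells of a type and less RNA per cell cannot be told apart.

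Over the detected genes the differences centred near 0, with a median of -0.012 and an SD across genes of 0.38 (log2, n = 10825 genes, which are not replicates). A detected gene counted as higher or lower from a log2 difference of 1 in size, a 2-fold change between normalized values, and this is the size rule used throughout. The rule was also applied where 1 of the 2 arrays missed the probe. There the fold that is assured can be below 2, as for SALL3 (at least 1.54-fold higher) and NRARP (at least 1.66-fold lower). By this rule 68 genes (0.628% of those measured) were higher with both treatments and 71 genes (0.656%) were lower. Counted over probes, 108 (0.606%) were higher and 94 (0.527%) lower. The increases reached further than the decreases, since 16 genes were higher by a log2 difference of at least 2 and 3 were lower by that much. Some of the 16 were missed in untreated cells, where only a smaller fold is assured. This was at least 3.75 for MIXL1, 3.16 for CDX2, 2.74 for LEF1 and 2.68 for CDX1. The same measurement taken at the brightest and the next detected probe of a gene differed with an SD of 0.43 over 2660 genes, so that a single gene near the threshold carries little weight. BMP7 and BAMBI, both at 1.01, lay just inside it and MSX2, at 0.97, just outside. The decreases are the direction that depended more on scaling. Scaling each array to the median of the probes detected on all 4 arrays gave 83 higher and 60 lower genes (140 and 77 probes), whereas scaling to the median of all probes, an alternative chosen after seeing the data, gave 53 and 119 genes (85 and 158 probes).

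**Figure D1:**
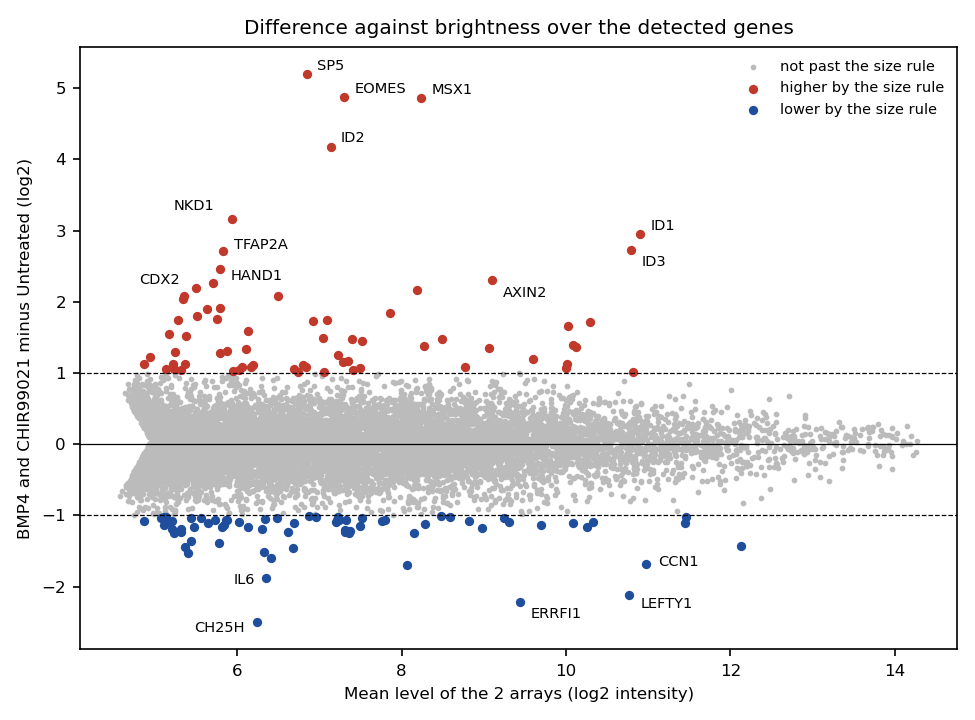
Log2 difference between BMP4 and CHIR99021 and Untreated (vertical axis) against the mean log2 intensity of the 2 arrays (horizontal axis) for the 10825 detected genes, with dashed lines at the size rule. The 68 higher genes (red) reach 5.19 and the 71 lower genes (blue) reach -2.49, and both are spread over the whole range of brightness except the very brightest genes.

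The 4 largest increases were in genes of transcriptional regulators that were dim or undetected in untreated cells. SP5, a zinc finger factor induced by beta-catenin, stood at log2 levels of 4.25 untreated, 4.28 with BMP4, 9.79 with CHIR99021 and 9.44 with both. It was thus detected on the 2 arrays with CHIR99021 and not on the other 2, and was at least 22.8-fold higher with both treatments than untreated. Its raw intensity went from 83.2 to 734. Such a fold is a bound, used wherever a probe was missed on the dimmer array and taken against the lowest level of any detected probe on that array. All folds are on the scale of background-corrected intensity plus an offset of 16, which understates the change of dim genes.

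EOMES, whose T-box protein acts in the streak and in cardiac and endodermal precursors, was not detected in untreated cells at 4.87, and stood at 5.90 with BMP4, 8.39 with CHIR99021 and 9.74 with both. Its level with both treatments was at least 28.0-fold above untreated, and it was the highest of the 4 arrays. MSX1, a homeobox factor of early mesoderm and a BMP target in many tissues, showed the same order, with 5.81 untreated, 6.59 with BMP4, 8.45 with CHIR99021 and 10.67 with both. Here all 4 arrays detected the probe and the fold over untreated was 29.0. ID2, which encodes a helix-loop-helix protein that blocks DNA binding by its partners, was at 5.05 untreated, 6.64 with BMP4, 6.94 with CHIR99021 and 9.23 with both, or 18.1-fold higher. A second ID2 probe gave 4.99, 6.48, 6.84 and 8.47 in the same order and an 11.1-fold difference, so that both probes placed the single treatments between the untreated and the combined array.

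The promoters of these 4 genes and of CDX2, a chosen marker of the response at rank 12 of the increases, are shown. Their windows differ in the letters that TCF/LEF factors are known to bind. Each window runs from 250 bases before to 50 bases after a transcription start in RefSeq (GRCh38.p14), 5′ to 3′ on the strand of the gene. Capitals mark matches on either strand to CTTTGAT or CTTTGAA, which TCF/LEF factors bind, and to GTCTAGAC or GGCGCC, which SMADs bind. In the windows printed only the first 2 of these 4 words occur, and no matches overlap. The windows lie at chr2:170715087-170715386 (plus strand) for SP5, chr3:27722274-27722573 (minus) for EOMES, chr4:4859415-4859714 (plus) for MSX1, chr2:8681806-8682105 (plus) for ID2 and chr13:27969266-27969565 (minus) for CDX2.
SP5: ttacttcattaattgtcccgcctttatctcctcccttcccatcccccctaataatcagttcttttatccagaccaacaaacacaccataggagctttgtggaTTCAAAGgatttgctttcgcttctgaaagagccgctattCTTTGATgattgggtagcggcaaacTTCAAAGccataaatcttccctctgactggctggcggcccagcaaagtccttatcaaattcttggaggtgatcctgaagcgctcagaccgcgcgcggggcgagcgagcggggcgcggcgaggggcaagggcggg
EOMES: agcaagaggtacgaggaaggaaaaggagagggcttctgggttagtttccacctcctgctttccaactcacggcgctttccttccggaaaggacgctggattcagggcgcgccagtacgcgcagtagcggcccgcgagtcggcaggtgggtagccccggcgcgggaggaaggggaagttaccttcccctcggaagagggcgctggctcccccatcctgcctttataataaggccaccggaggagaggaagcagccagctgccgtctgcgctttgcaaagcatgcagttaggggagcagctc
MSX1: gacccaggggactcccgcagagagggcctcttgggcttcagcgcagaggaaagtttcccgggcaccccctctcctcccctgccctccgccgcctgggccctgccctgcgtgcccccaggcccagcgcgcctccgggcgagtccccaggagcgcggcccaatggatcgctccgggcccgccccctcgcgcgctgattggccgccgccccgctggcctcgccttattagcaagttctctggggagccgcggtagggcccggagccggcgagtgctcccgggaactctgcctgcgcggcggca
ID2: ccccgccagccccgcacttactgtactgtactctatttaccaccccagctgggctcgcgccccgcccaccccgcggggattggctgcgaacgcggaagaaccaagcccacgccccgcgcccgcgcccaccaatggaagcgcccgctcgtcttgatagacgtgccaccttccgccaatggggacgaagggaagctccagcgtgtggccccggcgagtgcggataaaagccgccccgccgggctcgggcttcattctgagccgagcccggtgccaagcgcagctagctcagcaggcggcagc
CDX2: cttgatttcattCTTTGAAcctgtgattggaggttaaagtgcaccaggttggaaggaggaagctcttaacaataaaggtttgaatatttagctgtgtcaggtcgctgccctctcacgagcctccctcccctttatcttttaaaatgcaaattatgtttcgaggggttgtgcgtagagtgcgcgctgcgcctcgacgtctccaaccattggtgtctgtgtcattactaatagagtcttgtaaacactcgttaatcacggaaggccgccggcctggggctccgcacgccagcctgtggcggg

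The SP5 window held 3 TCF/LEF matches, with first bases at -148, -109 and -84 from the start site, and the CDX2 window held 1, at -238. The windows of EOMES, MSX1 and ID2 held none of the 4 words, which says only that these letters are not in these 300 bases. The table of promoters covered 46 of the 68 higher genes with 56 windows and 54 of the 71 lower genes with 91 windows. CTTTGAT occurred in 3 of the 56 (5.36%), those of SP5, MIXL1 and HAND1, against 2.62% of all 35116 windows. CTTTGAA occurred in 6 of the 56 (10.7%), among them SP5, CDX2, DACT1, ID3 and PDE4B, against 4.43% of all windows. GTCTAGAC was found in 1 window, that of SMAD6 (1.79%, against 0.202% of all), and GGCGCC in 14 (25%, against 19.2%). For the lower genes the shares were 2.20% for CTTTGAT, 3.30% for CTTTGAA, 0% for GTCTAGAC and 27.5% for GGCGCC. These shares describe letters in short windows, with several windows for some genes, and no match was taken as a binding site.

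Some targets and feedback regulators of BMP-SMAD signaling were higher with both treatments. Of 20 such genes on the array, 8 were detected on both arrays, 5 with both treatments only and none in untreated cells only. Against 0.628% of all genes, 7 of the 13 detected members were higher by the size rule, 6 did not pass and none was lower. The median difference was 0.55 over all 20, whether detected or not, and 1.01 over the 13, beside -0.0026 over all 20046 genes and -0.012 over the detected ones. Members that were detected only where they were high had to differ, so the median over the detected ones is a description only, here and in the lists below. Counts in those lists are read beside 0.628% of all genes higher and 0.656% lower. This list and those below were chosen with earlier results of these data known, so their counts are descriptions and no test of enrichment. The lists share members, so that MSX1, HAND1, FST, CDX1, NODAL and WNT3 each count in more than 1 of them.

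In contrast to ID2, ID1 and ID3 were already bright in untreated cells, and ID4 was not detected on either array. ID1 was at 9.43 untreated, 12.36 with BMP4, 8.43 with CHIR99021 and 12.38 with both, so that the level with both treatments was at that of BMP4 alone and the level with CHIR99021 alone below that of untreated cells. The 7.72-fold difference from untreated was also seen at a second ID1 probe, where it was at least 3.50-fold. ID3 was at 9.43, 11.75, 10.38 and 12.16 in the same order of arrays, 6.63-fold higher with both. HAND1, a factor needed in heart, lateral mesoderm and trophoblast, was missed untreated (4.57) and with CHIR99021 (4.33), and read 7.64 with BMP4 and 7.03 with both. Hence HAND1 was brighter with BMP4 alone than with both, and at least 4.27-fold above untreated.

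The feedback inhibitors and antagonists of the pathway were split. SMAD6, which blocks receptor SMADs, was at 5.33 untreated, 6.81 with BMP4, 4.69 with CHIR99021 and 6.92 with both, a 3.00-fold difference. BAMBI, a decoy receptor that lacks a kinase domain, was at 10.31, 11.55, 9.84 and 11.32 in that order, a 2.02-fold difference. SMAD7, the other inhibitory SMAD, differed by -0.01 and the secreted BMP antagonist GREM1 by -0.51, with 0.03 at a second GREM1 probe, and neither passed. The antagonists NOG and CHRD were not detected. Of 22 BMP ligands, receptors, SMADs and extracellular modulators on the array 14 were detected, and FST (3.27-fold) and BMP7 (2.01-fold) were higher while none was lower. FST encodes follistatin, which binds and inactivates Activin and some BMPs, and was at 9.44 untreated, 9.60 with BMP4, 11.09 with CHIR99021 and 11.15 with both. It was high on both arrays with CHIR99021, and a second FST probe was 3.70-fold higher. The pathway components SMAD1 (0.18), SMAD5 (0.20), SMAD4 (-0.33), ACVR1 (0.23) and BMPR2 (0.68) did not pass the rule.

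By count, though not by share of detected members, feedback and target genes of WNT signaling held more increases than any other list. On the array were 24 of them, of which 10 were detected on both arrays and 8 with both treatments only. By the size rule 9 of the 18 detected members were higher, against 0.628% of all genes, and none was lower. The median was 0.60 over all 24 and 0.97 over the 18, of which the 8 detected only with both treatments had to differ. Besides SP5 the higher members were NKD1, AXIN2, LEF1, CDX1, DACT1, NOTUM, SALL3 and ZNRF3. AXIN2, a scaffold of the destruction complex and a classical feedback gene, was at 7.96 untreated, 7.73 with BMP4, 10.36 with CHIR99021 and 10.26 with both, a 4.92-fold difference. The arrays with CHIR99021 were alike in AXIN2, and so were the 2 without it.

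The same grouping held for NKD1, a Dishevelled-binding antagonist, with 4.35 untreated, 4.43 with BMP4, 7.05 with CHIR99021 and 7.52 with both (at least 5.99-fold). LEF1, a DNA-binding partner of beta-catenin, was at 4.31, 4.65, 5.91 and 6.39 (at least 2.74-fold), and its second probe was at least 2.52-fold higher. In DACT1, which encodes another Dishevelled-binding protein, the level with CHIR99021 alone (9.56) was above that with both (8.97), with 7.59 untreated and 7.15 with BMP4. A further detected DACT1 probe differed by 0.81 and so did not pass. ZNRF3, a ubiquitin ligase that removes Frizzled receptors, was 2.16-fold higher, and NOTUM, a secreted enzyme that inactivates WNT ligands, was detected with both treatments alone, at 5.89 against 4.59 untreated, 4.77 with BMP4 and 4.64 with CHIR99021. Its second probe was likewise detected on that array only. The proliferation genes MYC (-0.59) and CCND1 (0.68), known WNT targets in other tissues, did not pass, nor did the inhibitors DKK1 (0.83) and WIF1 (0.67).

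The ligands, receptors and destruction complex of the WNT pathway moved less, with a median of -0.10 over 29 genes on the array. WNT3, a ligand of the posterior epiblast and primitive streak, was at 6.30 untreated, 6.92 with BMP4, 6.98 with CHIR99021 and 7.78 with both, or 2.80-fold higher. WNT7A, by contrast, was detected untreated (6.17) and with BMP4 (5.31) but not with CHIR99021 (4.81) or both (4.64), and was at least 2.29-fold lower. The receptor gene FZD4 was 2.04-fold lower. The drug's target GSK3B (-0.05), CTNNB1, which encodes beta-catenin (0.03), and AXIN1 (-0.42) did not pass. WLS and WNT5B, both at 0.92, lay just below the rule, and FZD7 (-0.82) and FZD2 (-0.78) were the nearest to it on the other side. A second WLS probe was 2.61-fold higher, and its other probes differed by 0.72, 0.85 and 0.94.

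**Figure D2:**
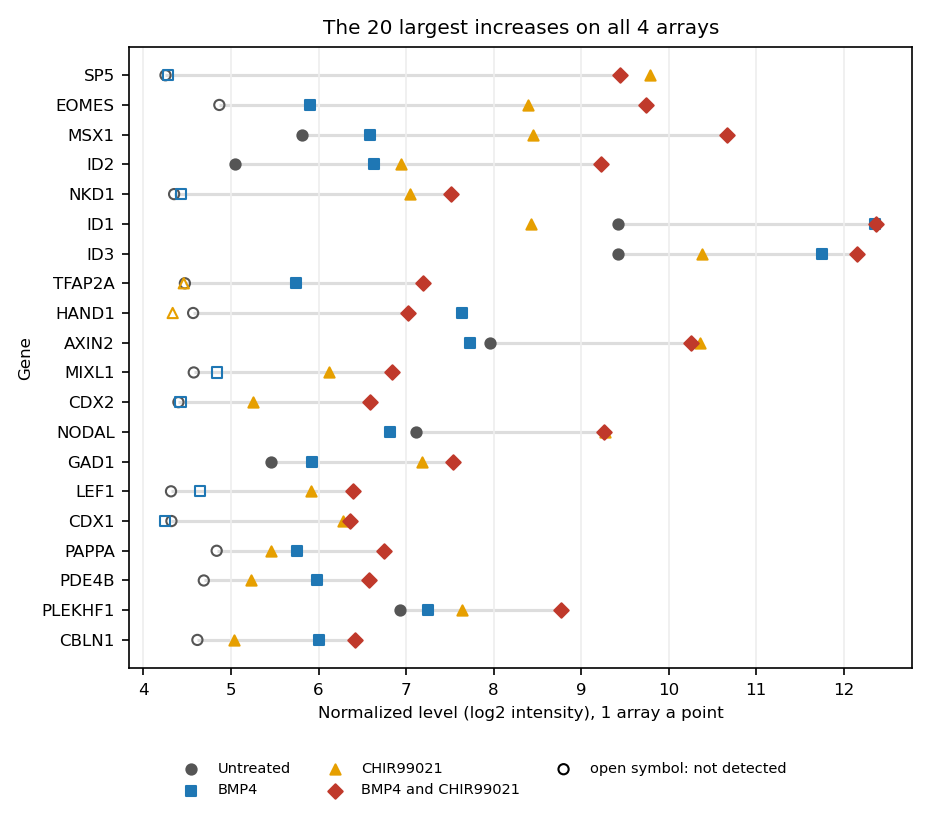
Normalized log2 intensity (horizontal axis) of the 20 genes with the largest increases on each of the 4 arrays, 1 array a point, with open symbols where the probe was not detected and a grey line from Untreated to BMP4 and CHIR99021. SP5, AXIN2, NODAL and CDX1 have both CHIR99021 arrays together on the right, ID1 has both BMP4 arrays together, and MSX1 and ID2 have the combined array well to the right of the others.

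Genes of the primitive streak and of early mesoderm were detected in part. Of 18 streak and mesendoderm genes on the array, 4 were detected on both arrays, 3 with both treatments only and 11 on neither. The size rule called EOMES, MIXL1, NODAL and WNT3 higher, against 0.628% of all genes, and none lower. The median was 0.11 over all 18 and 1.49 over the 7 detected. The 3 detected with both treatments only had to be higher, so the median of 1.49 is a description only. MIXL1, a homeobox factor of the streak, was not detected untreated (4.57) or with BMP4 (4.84), and stood at 6.12 with CHIR99021 and 6.84 with both, at least 3.75-fold higher. NODAL, the ligand that drives streak formation, was at 7.11 untreated, 6.82 with BMP4, 9.27 with CHIR99021 and 9.27 with both, a 4.47-fold difference. Both arrays with CHIR99021 were thus equal in NODAL. TBXT, the T-box gene also known as Brachyury, was at 4.25 untreated, 4.29 with BMP4, 4.95 with CHIR99021 and 5.10 with both. It was detected on the combined array alone, and its difference of 0.85 did not pass. The level with CHIR99021 lay just below the lowest detected one on that array, 5.02. CER1 and LHX1, markers of the anterior streak and its derivatives, were detected on all 4 arrays and differed by -0.04 and -0.01.

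In the list of lateral and cardiac mesoderm, MSX1, HAND1, PITX1 and PRRX2 were higher among 9 detected members, against 0.628% of all genes. MSX1 and HAND1 were also counted among the BMP-SMAD targets above. The median over all 20 on the array was 0.03. PITX1, a homeobox factor of the hindlimb field, was detected with both treatments alone, at 5.95 against 4.40 untreated, 4.69 with BMP4 and 4.89 with CHIR99021. PRRX2, a homeobox factor of mesenchyme, was at 5.44 untreated, 6.49 with BMP4, 5.14 with CHIR99021 and 6.47 with both, so that it was high on the arrays with BMP4. KDR (-0.22), a receptor of vascular precursors, and SNAI2 (-0.29) and FOXC2 (-0.80), factors of mesenchyme and paraxial mesoderm, were not higher.

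Posterior genes were few in number at this time. CDX1 and CDX2, caudal-type homeobox factors of the posterior body axis, were higher among 4 detected members, against 0.628% of all genes. The median over the 12 on the array was 0.09. CDX2, which also marks trophoblast, was not detected untreated (4.40) or with BMP4 (4.42), was at 5.25 with CHIR99021 and reached 6.59 with both, at least 3.16-fold above untreated. CDX1 was at 4.32 untreated, 4.25 with BMP4, 6.28 with CHIR99021 and 6.36 with both. CYP26A1, a retinoic acid-degrading enzyme, was bright on all 4 arrays and differed by -0.80.

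Among 23 genes of amnion, trophoblast and surface ectoderm on the array 10 were detected. The factors TFAP2A and GRHL3 were higher, against 0.628% of all genes, while none was lower. TFAP2A was at 4.47 untreated, 5.74 with BMP4, 4.46 with CHIR99021 and 7.19 with both (at least 4.79-fold), so that the 2 arrays without BMP4 did not detect it. No other TFAP2A probe of the array was detected. GRHL3, a factor of surface epithelium, was likewise detected only on the 2 arrays with BMP4, with 4.61, 5.54, 4.83 and 6.13 (at least 2.30-fold). A second GRHL3 probe, detected in untreated cells, differed by 0.46 and did not pass. GATA3 (0.34), TFAP2C (0.50, and 0.98 at a second probe) and the keratins KRT8 (-0.30), KRT18 (-0.53) and KRT19 (-0.71) did not pass, and the median over all 23 was 0.05.

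Other increases belonged to no single pathway. EBF3, a helix-loop-helix factor of neural and mesodermal cells, was detected with both treatments alone, at 6.15 against 4.41 untreated, 4.44 with BMP4 and 4.27 with CHIR99021. VENTX, a homeobox factor related to the frog Vent genes that act in BMP signaling, was 3.31-fold higher, with 6.06 untreated, 6.94 with BMP4, 6.21 with CHIR99021 and 7.79 with both. GAD1, which encodes an enzyme that makes GABA, was 4.23-fold higher and 2 further probes of it were at least 2.78-fold and 2.27-fold higher. The extracellular matrix and protease genes MMP16 (at least 3.25-fold), PAPPA (at least 3.53-fold) and EMILIN2 (3.16-fold) were higher as well. These differed in where they were bright, since MMP16 was at 6.72 with CHIR99021 and 4.83 with BMP4, whereas EMILIN2 was at 9.37 with CHIR99021 and 10.29 with BMP4. The FGF receptor gene FGFR3, at 9.39 untreated, 10.38 with BMP4, 9.23 with CHIR99021 and 10.79 with both, was 2.63-fold higher, but its second probe, a dim one, differed by -0.11. PDE4B, a cAMP phosphodiesterase (at least 3.14-fold), CBLN1, a secreted protein of synapses (at least 2.79-fold), PLPP3, a lipid phosphatase (3.34-fold), and PLEKHF1, an endosomal protein (3.58-fold), complete the 30 largest increases.

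The level under combined treatment exceeded that of each other array by the size rule in 9 genes, namely ID2, MSX1, EBF3, TFAP2A, EOMES, CDX2, PLEKHF1, NOTUM and PITX1. The excess over the brighter of the single treatments ran from 1.06 (PITX1) to 2.29 (ID2). For EBF3, NOTUM and PITX1 no other array detected the probe, so this excess is over levels that were not detected. The lowest detected levels were 4.96 with BMP4 and 5.02 with CHIR99021. Against either of these, PITX1 at 5.95 and NOTUM at 5.89 would fall short of the size rule. No gene was lower in this way. These comparisons all share the combined array, and whether the excess exceeds the error of that array cannot be told from 1 array.

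The 3 largest decreases were those of CH25H, ERRFI1 and LEFTY1. CH25H, an enzyme that hydroxylates cholesterol, was at 7.49 untreated, 6.83 with BMP4, 5.99 with CHIR99021 and 5.00 with both, a 5.63-fold difference. ERRFI1, an inhibitor of the EGF receptor, was at 10.55, 10.24, 8.62 and 8.34 in that order, 4.64-fold lower. LEFTY1, a secreted antagonist of NODAL and one of its targets, was at 11.82 untreated, 10.86 with BMP4, 10.46 with CHIR99021 and 9.70 with both, 4.35-fold lower. In each of the 3 the combined array was the lowest, and for ERRFI1 both arrays with CHIR99021 lay well below the other 2.

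LEFTY1 stood apart from the other genes of NODAL, Activin and TGF-beta responses, of which 17 were detected of 24 on the array with a median of 0.07 over the 24. NODAL and FST were higher and LEFTY1 was the only member lower by the size rule. LEFTY2, the neighbouring and closely related gene, was at 10.41 untreated, 10.36 with BMP4, 10.10 with CHIR99021 and 10.31 with both, a difference of -0.10. The genes are near-identical in much of their sequence, and whether the probes tell them apart was not tested. SMAD7 (-0.01), CER1 (-0.04) and PMEPA1 (0.88), further responders to the pathway, did not pass.

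**Figure D3:**
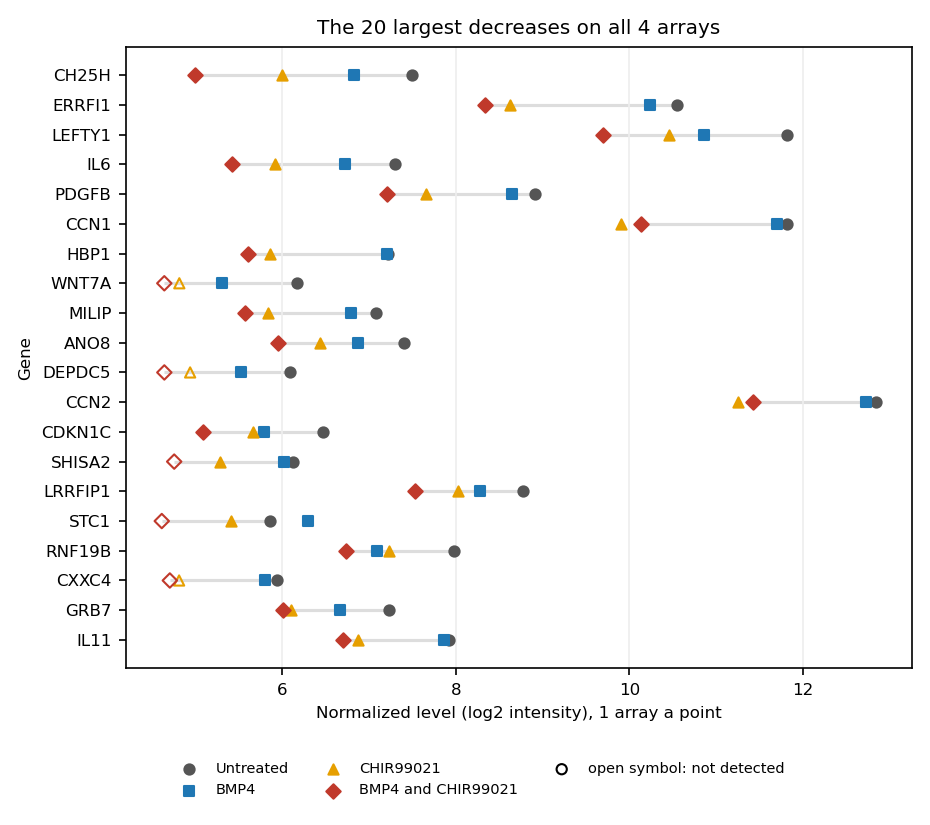
Normalized log2 intensity (horizontal axis) of the 20 genes with the largest decreases on each of the 4 arrays, 1 array a point, with open symbols where the probe was not detected and a grey line from Untreated to BMP4 and CHIR99021. CCN1, CCN2, HBP1 and IL11 have the BMP4 array beside the untreated one and the CHIR99021 array beside the combined one.

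The list of cytokines, growth factors and their enzymes held more decreases than any other list. Of 28 on the array 21 were detected, and 5 were lower while none was higher, beside 0.656% of all genes. The 5 included the enzyme gene CH25H, given above, which had the lowest value of the list (-2.49). The median was -0.14 over the 28 and -0.42 over the 21. IL6, a cytokine, was at 7.30 untreated, 6.72 with BMP4, 5.92 with CHIR99021 and 5.42 with both, 3.67-fold lower. PDGFB, a growth factor for mesenchymal cells, was 3.26-fold lower, and both of its further probes were lower too, by 2.60-fold and at least 1.82-fold. IL11, a cytokine of the IL6 family, was at 7.93, 7.87, 6.87 and 6.70, and the chemokine gene CXCL1 at 5.75, 6.16, 5.08 and 4.67, in the order untreated, BMP4, CHIR99021 and both. Thus IL11 and CXCL1 were lower on the arrays with CHIR99021 only. The fibroblast markers given above had values below 0 as well, and their part in these decreases was not tested.

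Targets of YAP-TEAD and of SRF with its cofactors were split. CCN1 and CCN2, matricellular proteins and common readouts of YAP, were lower by 3.22-fold and 2.68-fold, as was AJUBA (at least 1.91-fold). They were the lower ones among 26 detected of 29 genes on the array, beside 0.656% of all genes. CCN1 was at 11.81 untreated, 11.71 with BMP4, 9.90 with CHIR99021 and 10.13 with both, and CCN2 at 12.85, 12.73, 11.26 and 11.42. In each the CHIR99021 arrays were low and the BMP4 array was close to the untreated one, and a second CCN2 probe was 2.75-fold lower. The list as a whole had a median of -0.09 over the 29, and the cytoskeletal members ACTB (-0.10), ACTA2 (0.12), TAGLN (0.15, and -0.60 at its second probe) and VCL (-0.21) did not pass.

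The FGF-ERK feedback list had ERRFI1, LRIG1 and PHLDA1 lower and FGFR3 higher, beside 0.656% and 0.628% of all genes. Its median was -0.17 over 24 genes on the array and -0.34 over the 17 detected. LRIG1, an inhibitor of receptor tyrosine kinases, was at 8.84 untreated, 7.50 with BMP4, 8.69 with CHIR99021 and 7.72 with both, so that it was low on the arrays with BMP4, and a second probe differed by -0.88. PHLDA1, a pleckstrin homology-like protein, was low on those with CHIR99021, with 12.01, 11.65, 10.77 and 10.90 in the same order, although its second probe differed by 0.24. The direct ERK feedback genes DUSP6 (-0.66), SPRED1 (-0.81) and ETV5 (-0.63) were below 0 and SPRY4 (0.58) was above, none past the rule. Immediate-early genes had a median of -0.18 over 27 on the array. KLF10, a TGF-beta-inducible zinc finger factor, was 2.49-fold higher, and JUN (-0.93), KLF6 (-0.80), FOS (0.11) and EGR1 (0.56) did not pass.

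Further decreases among the 30 largest included regulators of growth and signaling. HBP1, a transcriptional repressor of the cell cycle and of WNT target genes, was at 7.21 untreated, 7.21 with BMP4, 5.86 with CHIR99021 and 5.61 with both, 3.04-fold lower, and its second probe was 2.03-fold lower. CXXC4, which binds Dishevelled and dampens WNT signaling, was at 5.94, 5.80, 4.81 and 4.70 (at least 1.95-fold lower). SHISA2, known from frog and mouse to retain Frizzled and FGF receptors inside the cell, was at least 2.21-fold lower. CDKN1C, an inhibitor of cyclin-dependent kinases, was at 6.47, 5.79, 5.66 and 5.09 (2.61-fold lower). The secreted hormone STC1 and the cholesterol exporter ABCA1 were detected on the other 3 arrays but not with both treatments, and were at least 1.84-fold and 1.77-fold lower. DEPDC5, an inhibitor of the mTOR pathway (at least 2.16-fold), TRIB1, a pseudokinase (2.26-fold), and FLRT3, a membrane protein of cell adhesion and FGF signaling (2.25-fold), were lower as well. ERAP2, an aminopeptidase that trims antigens, was 2.23-fold lower at its brightest probe but differed by 0.18 at its second.

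Genes of the undifferentiated state did not pass the size rule in either direction. Of 28 on the array 25 were detected, 18 of them below 0 and 7 above, with a median of -0.24 over the 28 and -0.27 over the 25. POU5F1 was at 11.51 untreated, 11.38 with BMP4, 11.55 with CHIR99021 and 11.42 with both, and NANOG at 9.84, 9.92, 9.82 and 10.11, with a difference of -0.19 at a second, dimmer NANOG probe. Neither of these core factors thus differed by more than 0.27, and DPPA4 (0.22), LIN28A (0.12) and LIN28B (0.16) were of that order too. SOX2, their partner, was at 9.16 untreated, 9.10 with BMP4, 8.25 with CHIR99021 and 8.54 with both, a difference of -0.62. A second SOX2 probe was at 8.61, 8.64, 8.48 and 7.64 in that order, a difference of -0.97, close to the size rule. The first probe was thus low on both arrays with CHIR99021 and the second on the combined array alone.

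The lowest values of that list were those of PRDM14 and FOXD3, transcriptional regulators of the pluripotent state, at -0.90 each. PRDM14 was at 6.88, 6.57, 6.16 and 5.98 and FOXD3 at 5.90, 5.62, 4.37 and 5.00, in the order untreated, BMP4, CHIR99021 and both. ZIC2 (-0.68) and OTX2 (-0.67), factors of the primed epiblast and of anterior neural tissue, were lower on the arrays with BMP4, with OTX2 at 5.89, 5.28, 5.98 and 5.22. The highest were VRTN (0.64) and SALL4 (0.57). None of these differences reached the size rule.

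**Figure D4:**
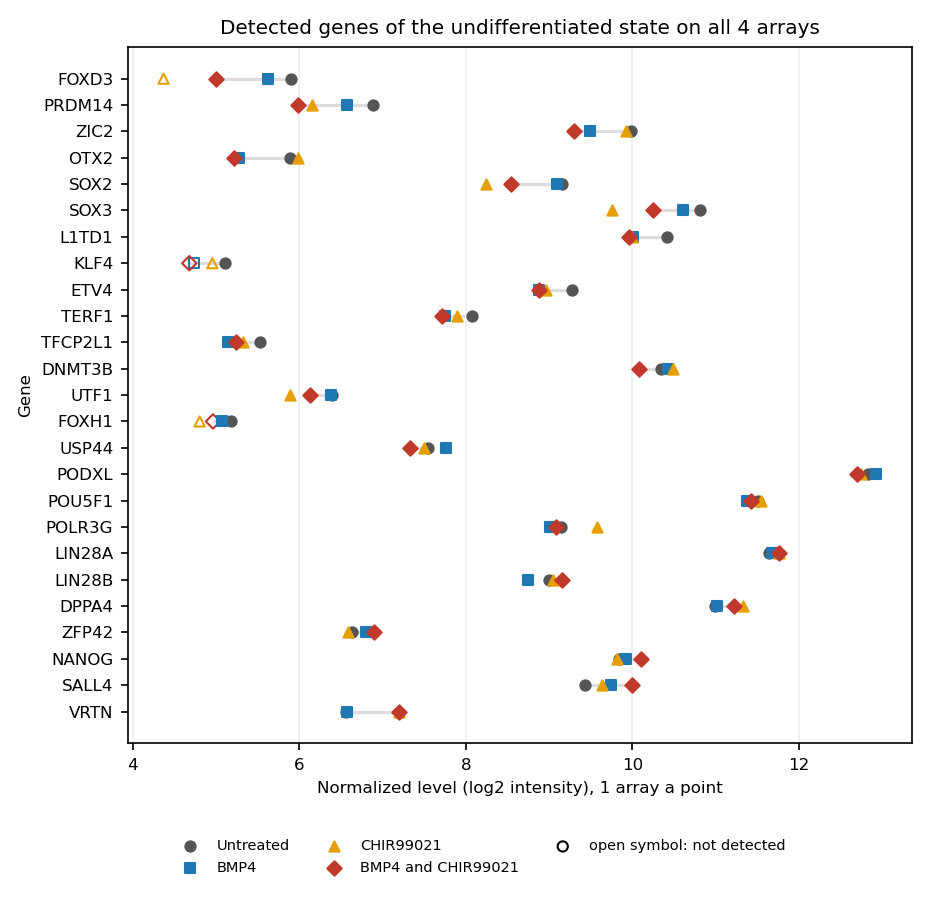
Normalized log2 intensity (horizontal axis) of the 25 detected genes of the undifferentiated state on each of the 4 arrays, ordered by the difference between BMP4 and CHIR99021 and Untreated, with open symbols where the probe was not detected. POU5F1, LIN28A and NANOG have all 4 arrays close together, and FOXD3 and PRDM14 show the largest gaps, of -0.90 each.

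The remaining lists had few members past the rule, beside 0.628% of all genes higher and 0.656% lower. Of 15 detected Notch genes NRARP, a feedback inhibitor detected in untreated cells only, was lower (at least 1.66-fold), and HES1 differed by 0.02. Of 30 detected cell cycle genes CDKN1C and the S-phase factor MYBL2 (at least 1.63-fold) were lower and none was higher, with a median of -0.12 over 32 on the array. In the adhesion list MMP16 and EMILIN2 were higher, while the cadherins CDH1 (-0.06) and CDH2 (-0.04) and EPCAM (-0.25) did not pass. EBF3 was the only neural or neural crest member past the rule. No member passed among 20 detected genes of cholesterol and fatty acid synthesis, 24 of the ATF4 and unfolded protein response, 14 p53 targets, and 20 ribosome and reference genes, whose medians over the genes on the array were -0.04, 0.19, -0.04 and 0.05. At a dimmer probe the cholesterol synthesis gene MSMO1 was 2.19-fold higher, although its second probe differed by 0.21.

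**Figure D5:**
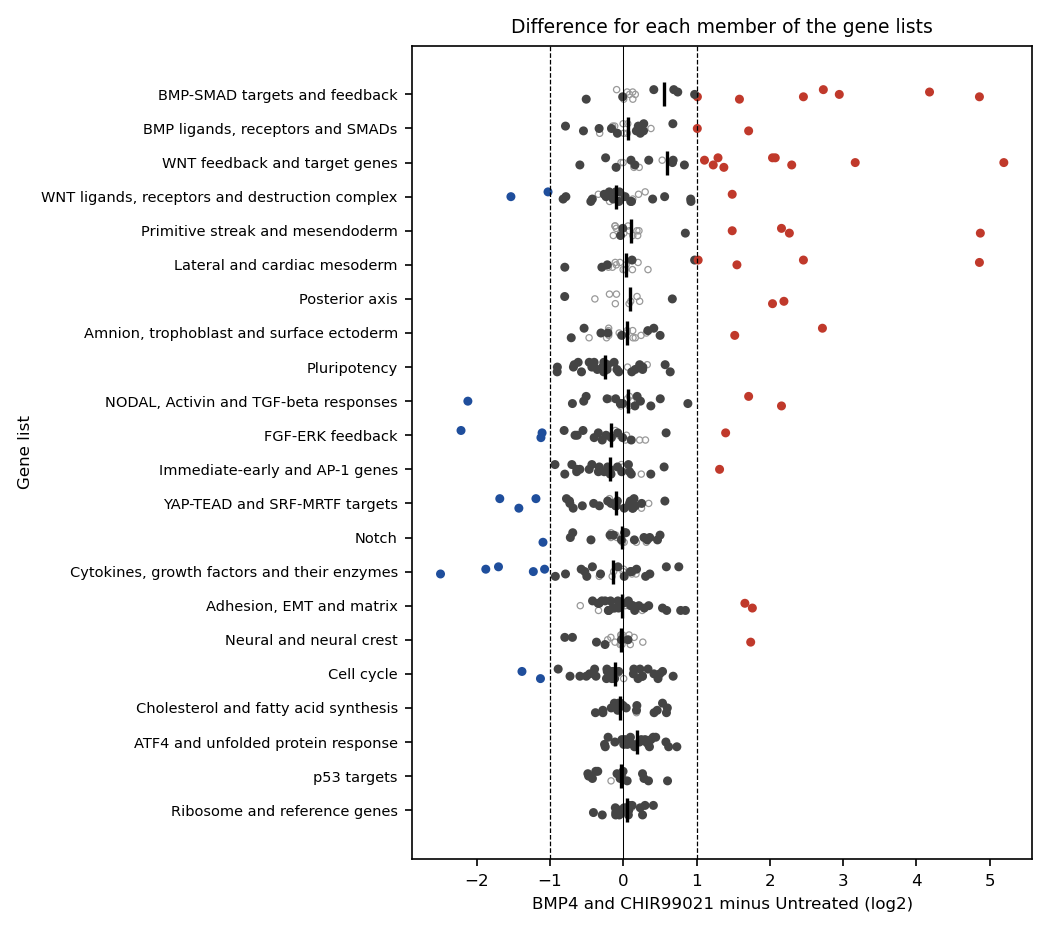
Log2 difference between BMP4 and CHIR99021 and Untreated (horizontal axis) for each member of 22 gene lists (vertical axis), with filled points for members detected on at least 1 of the 2 arrays (red higher, blue lower by the size rule), open points for undetected members and a bar at the median over all members on the array. The BMP-SMAD and WNT feedback lists have medians of 0.55 and 0.60, and the other lists lie between -0.24 and 0.19.

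Detection itself also differed between the arrays. Of the 17836 probes 15296 were detected on both arrays, 1074 with both treatments only and 1466 in untreated cells only, and of these 44 and 26 passed the size rule. Among the genes called, 24 of the 68 higher ones were not detected in untreated cells and 17 of the 71 lower ones were not detected with both treatments. Besides EBF3, NOTUM and PITX1, no higher gene was detected on the combined array alone. CALML3, LINC00113, NRARP and RPS6KA5 were the lower genes detected on the untreated array alone. Further probes were detected for 15 higher genes, where 15 of 17 had the same sign and 8 passed the size rule, and for 18 lower genes, where 15 of 20 had the same sign and 4 passed. None of these probes passed in the opposite direction.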

How the data were processed

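RNA of the 4 groups was hybridised to HumanHT-12 V4 bead arrays. Per the file headers the authors deposited, for each of 47321 probes and each array, a linear intensity without normalization and a detection p-value from GenomeStudio (version not given in the sources used here), and in a second table normalized intensity values, made per the methods by background subtraction and cubic spline normalization. The raw intensities were background-corrected by normexp in limma 3.58.1 (R 4.3.3), with background inferred from the detection p-values, an offset of 16 was added, and log2 values were then quantile-normalized over the 4 arrays. The number of arrays limits the precision, and no test was run. Probes were named through the platform annotation, with symbols updated by Entrez ID (30073 of 30120 listed probes matched), and 17209 probes stayed unnamed, 8 of them because they list several symbols. A gene was read at its probe of highest mean log2 intensity. The code of the calling step was checked on simulated data with large set changes and little noise, which does not gauge false calls in these arrays.

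The genes named are the 30 with the largest increase and the 30 with the largest decrease past the size rule, members of 22 gene lists and 6 marker lists, and the markers MSX1, EOMES, ID2, CDX2 and LEFTY1. CALML3, LINC00113 and RPS6KA5 are named outside this rule, to spell out a count, chosen after their values were seen. The members and lists were chosen with earlier results of these data known. Alternatives were another offset, no background correction, other scalings, the authors' normalized values, other detection filters, a stricter size rule and the mean over a gene's probes. No genome build enters the values, and the promoters come from RefSeq (GRCh38.p14).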

Additional observations from a re-analysis of the deposited data

How the results depend on the processing

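With 1 array a group no spread between replicates can be had, and no paired analysis was possible because no group holds a second sample. The counts of 68 higher and 71 lower genes (108 and 94 probes) were 39 and 23 (50 and 28 probes) with an offset of 50, 26 and 14 (30 and 16 probes) without background correction, and 29 and 9 (35 and 10 probes) at a log2 size of 1.5. These settings shrink the differences of dim genes or ask for more. Restricting to probes detected on both arrays gave 44 higher and 54 lower genes (64 and 68 probes). The authors' normalized values gave 142 lower probes, against 162 higher, with 92 higher and 91 lower genes. Scaling to the median of all probes, chosen after seeing the data, gave 119 lower genes and 158 lower probes and moved the median of the detected genes from -0.012 to -0.11, so changes under it are read against -0.11. The share of higher among called probes was 53.5% and became 64.5% with scaling to the median of probes detected on all arrays, 35.0% with the median of all probes, 64.1% with an offset of 50 and 65.2% without background correction. Alternatives were run for 39 higher and 36 lower genes, the 30 largest each way and the list members past the size rule, and none of these changed sign. Of them, 18 higher and 9 lower passed the size rule under every alternative that gives a value for a gene, among them SP5, EOMES, MSX1, ID2, ID1, ID3, CH25H, ERRFI1 and LEFTY1, whereas CDX2 did not without background correction (0.92). The medians over detected members of the lists for primitive streak (0.74), posterior axis (-0.065) and WNT feedback (0.25) were lower when only genes detected on both arrays were kept, and that for BMP-SMAD targets was higher (2.16).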

Other observations

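Probes without a gene name made up 3768 of the 17836 detected, and 19 of them were higher and 11 lower by the size rule. These are not described further. Several genes past the size rule belonged to no list. Among the increases, HAS3, which makes hyaluronan, was 2.78-fold higher, at 7.76 untreated, 8.01 with BMP4, 9.15 with CHIR99021 and 9.23 with both, and was high on both arrays with CHIR99021. LBH, a transcription cofactor of limb bud and heart, was likewise high on both arrays with CHIR99021. It stood at 6.80 untreated, 6.69 with BMP4, 8.09 with CHIR99021 and 8.25 with both, a 2.73-fold difference. The neuropeptide FF receptor gene NPFFR2 (2.79-fold) and the zinc finger gene SALL1 (at least 1.77-fold) were higher too. Among the decreases, RHOB, a small GTPase, was 2.14-fold lower, at 9.86 untreated, 9.68 with BMP4, 8.43 with CHIR99021 and 8.76 with both, and PLAU, the urokinase-type plasminogen activator, was 2.14-fold lower, at 10.87, 10.79, 10.52 and 9.77. These genes were chosen after their values were seen.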
